A study of Mus musculus with 8 samples.

Results

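The genes that write, copy and erase DNA methylation were examined as 8 loci, Tet1, Tet2, Tet3, Dnmt1, Uhrf1, Dnmt3a, Dnmt3b and Dnmt3l, out of 21951 protein-coding genes of the GENCODE annotation. The loci were taken by gene name, each as the annotated gene body plus 20 kb on either side in build mm10, and every peak of 8 CUT&Tag peak lists that overlapped such a window was used. CUT&Tag uses an antibody to tether a transposase to a chromatin protein, so that DNA near the protein is cut and tagged for sequencing. The cells were mouse embryonic fibroblasts (MEF) at day 5 of reprogramming, which had received retroviral Oct4 together with either wild-type Nanog (labelled Nanog+Oct4, NanogWT here) or a fusion of Nanog with the BRG1 interacting domain of SS18 (labelled NanogN70+Oct4, NanogBiD here). The targets were the FLAG tag carried by NANOG, BRG1 (labelled Smarca4), the motor subunit of the BAF remodeller, H3K27ac and H3K4me1 (H3K4me in the antibody field of the labels). Oct4 and the fibroblast background were thus shared by both arms, there was no arm without Nanog, and the MEFs of the study came from OG2 mice, which carry an Oct4-GFP reporter. Factor expression from a retrovirus varies from cell to cell, and cells that reprogram and cells that do not were profiled together.

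DNA methylation places a methyl group on cytosine, mostly in CpG, and at promoters and enhancers it usually accompanies silence. DNMT3A and DNMT3B set new methylation, with DNMT3L as a catalytically inactive partner, whereas DNMT1, guided by UHRF1 to hemimethylated DNA, copies it after replication. TET1, TET2 and TET3 oxidize methylated cytosine and so begin its removal, and in fibroblasts that become pluripotent this removal is part of the reopening of silent pluripotency genes. The comparison asked where NANOG and BRG1 sat at the genes of this machinery, whether the fusion changed that, and whether the 2 histone marks of enhancers and promoters moved with it.

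Each target had 1 list per arm, made from replicates merged before peak calling, so no spread between cultures was measured and the arms were not tested against each other. Lists held 30859 to 74782 peaks. A summit height is the number of tags piled up at the summit of a peak. It was not scaled to library depth, which is unknown, and more tags from every cell and more cells with a bound site cannot be told apart. The fibroblast label was checked on marker genes: 8 of 10 fibroblast genes had a promoter H3K27ac peak in NanogWT and 9 of 10 in NanogBiD, with summits of 0 to 44 and 0 to 37 tags. Of 6 pluripotency markers none had one in NanogWT and 1, Tdgf1, had one in NanogBiD. For endothelial, blood and epithelial markers, 3 genes each, the counts were 1, 1 and 0 in NanogWT and 3, 2 and 1 in NanogBiD. The part of such cells in the results below was not tested.

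The windows printed here come first because the FLAG or BRG1 signal in them differed between the arms. Each holds 201 bases of the GRCm38.p6 genome (the mm10 build), centred on the FLAG summit and read on the strand of the gene named. None overlaps an annotated exon. Not every window with a difference is shown. Among those left out were NanogWT only windows at Tet3, with a TEAD match, and in a Kdm4b intron near Uhrf1, without a match. A NanogBiD only window downstream of Dnmt3a, also without a match, was left out too. Capitals mark exact matches, on either strand, to 6 short motifs. These were the AP-1 letters TGACTCA, the octamer ATGCAAAT of OCT factors, ACAATG (SOX), TAATGG (NANOG), GGAATG (TEAD) and TGTGGT (RUNX).
Tet1 intron, chr10:62896766-62896966, minus strand, FLAG 10 tags in NanogWT and 36 in NanogBiD: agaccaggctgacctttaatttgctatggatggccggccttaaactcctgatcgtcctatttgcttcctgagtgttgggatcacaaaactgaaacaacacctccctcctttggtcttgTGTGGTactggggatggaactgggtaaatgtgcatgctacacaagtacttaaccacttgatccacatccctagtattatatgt
Dnmt3a intron, chr12:3818579-3818779, plus strand, NanogBiD only: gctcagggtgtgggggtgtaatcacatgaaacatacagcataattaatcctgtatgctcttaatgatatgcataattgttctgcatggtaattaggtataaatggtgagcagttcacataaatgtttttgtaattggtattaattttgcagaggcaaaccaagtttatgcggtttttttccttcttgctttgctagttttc
Dnmt3a intron, chr12:3854484-3854684, plus strand, NanogBiD only: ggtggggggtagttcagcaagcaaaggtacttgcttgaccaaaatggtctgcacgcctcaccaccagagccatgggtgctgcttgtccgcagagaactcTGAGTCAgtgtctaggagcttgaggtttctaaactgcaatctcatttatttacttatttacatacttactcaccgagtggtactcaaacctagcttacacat
Dnmt3a intron, chr12:3855928-3856128, plus strand, NanogWT only: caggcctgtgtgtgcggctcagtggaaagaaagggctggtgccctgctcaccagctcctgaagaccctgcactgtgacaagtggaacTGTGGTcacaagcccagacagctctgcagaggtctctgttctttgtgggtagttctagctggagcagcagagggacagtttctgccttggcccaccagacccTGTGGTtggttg
Upstream of Dnmt3l, chr10:78028059-78028259, plus strand, NanogBiD only: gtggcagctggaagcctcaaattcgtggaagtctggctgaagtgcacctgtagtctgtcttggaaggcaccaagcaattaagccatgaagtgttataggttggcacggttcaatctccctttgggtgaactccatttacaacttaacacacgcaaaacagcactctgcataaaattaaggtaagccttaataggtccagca
The third window has an AP-1 match that begins 1 base before the summit, the Tet1 window has a RUNX match beginning 18 bases after it, and the NanogWT only window of Dnmt3a has RUNX matches beginning 13 bases before and 89 bases after it. The second and the fifth hold none of the 6. Among the 88183 FLAG regions of the standard chromosomes, windows of this length held the AP-1 letters in 13.0%, OCT in 4.06%, SOX in 14.7%, NANOG in 12.3%, TEAD in 13.5% and RUNX in 17.6%. Of the 15 FLAG regions found in NanogBiD only in the 8 loci, 4 held the AP-1 letters, 3 the SOX letters and none the OCT or NANOG letters. Of the 10 found in NanogWT only, none held any of these 4. The TEAD letters were in 1 of these 10 and in none of the 15, and the RUNX letters in 1 and 2. Over all NanogWT only regions TEAD and RUNX stood at 15.6% and 18.6%, and over all NanogBiD only regions at 12.5% and 18.1%. Over all NanogBiD only regions the shares were 14.2% for AP-1, 17.03% for SOX, 4.98% for OCT and 16.2% for NANOG, and over all NanogWT only regions 8.53%, 13.0%, 2.48% and 7.68%. A match is a string of letters and not a measured site.

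Over the 8 loci the fusion arm had slightly more FLAG and BRG1 peaks and fewer H3K4me1 peaks. FLAG peaks numbered 47 in NanogWT and 52 in NanogBiD, and BRG1 peaks 28 and 38. H3K27ac peaks numbered 35 and 33, and H3K4me1 peaks 45 and 35. NanogBiD supplied 52.5% of the FLAG peaks of the loci (95% Wilson interval 42.8 to 62.1%) and 55.9% of all FLAG peaks. For BRG1 the shares were 57.6% (45.6 to 68.8%) and 63.5%, for H3K27ac 48.5% (37.1 to 60.2%) and 54.6%, and for H3K4me1 43.8% (33.4 to 54.7%) and 44.2%. The share over all peaks lay within the interval of the loci for each target. These intervals, like all below, cover counting error only. When each list was reduced to its 20000 highest-scoring peaks, NanogBiD held 10 of 22 FLAG peaks and 14 of 35 BRG1 peaks of the loci, 45.5% and 40.0%. That setting makes the arms equal in number over the genome, so the share over all peaks is then 50% by construction. By locus, FLAG peaks were more numerous in NanogBiD at 4 genes and in NanogWT at 2, with 40.9% and 14.4% over all protein-coding gene windows. For BRG1 this was 5 and none (42% and 10%), for H3K27ac 2 and 2 (29.1% and 13.5%) and for H3K4me1 1 and 4 (16.2% and 42.5%).

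**Figure D1:**
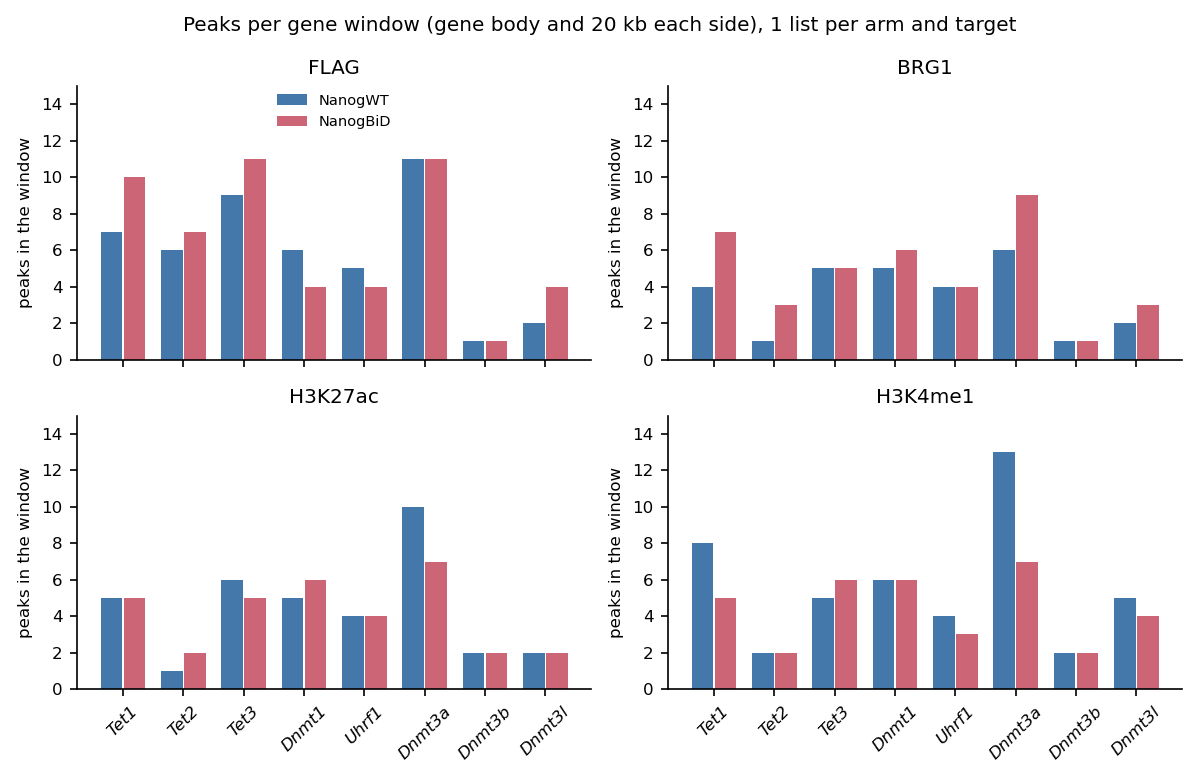
Number of peaks in each gene window (vertical axis) for the 8 genes (horizontal axis), with 1 panel per target, NanogWT in blue and NanogBiD in red, and 1 list behind each bar. BRG1 bars are higher in NanogBiD at Tet1, Tet2, Dnmt1, Dnmt3a and Dnmt3l and lower at none, and the H3K4me1 bar of Dnmt3a falls from 13 to 7.

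Peaks of both arms were merged into regions, and a region counts as arm-specific when only 1 of the lists has a peak there. FLAG gave 62 regions, of which 37 were shared, 10 were NanogWT only and 15 were NanogBiD only. BRG1 gave 43 regions: 23 were shared, 5 were NanogWT only and 15 were NanogBiD only. The NanogBiD only share was 24.2% for FLAG (15.2 to 36.2%), with 33.7% over all FLAG regions of the genome, and 34.9% for BRG1 (22.4 to 49.8%), with 48.4% over the genome. The NanogWT only shares, 16.1% for FLAG and 11.6% for BRG1, stood beside 15.8% and 9.91%. The BRG1 share depended on the peaks admitted. With a score of at least 100 it was 19.0% (7.67 to 40.0%) beside 50.6% over the genome, and when each list was reduced to 20000 peaks by score 8.70% (2.42 to 26.8%) beside 27%. The genome share lay above the interval of the loci in 3 of 7 such alternatives for BRG1, in 1 of 7 for FLAG, in 5 of 7 for H3K27ac and in none for H3K4me1.

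H3K27ac gave 38 regions, of which 28 were shared, 6 were NanogWT only and 4 were NanogBiD only. The last share was 10.5% (4.17 to 24.1%), below the 29.1% over the genome, and NanogWT only regions were 15.8% beside 14.6%. With windows of 100 bp around each summit in place of whole peaks, however, 15 of 50 H3K27ac regions were NanogBiD only (30%, 19.1 to 43.8%), and the share over the genome, 39.8% in that setting, lay within the interval. Without peaks at starts of other genes the share of the loci was 17.2% (5 of 29 regions), and no genome share was computed for that setting. Peaks were dropped there by their own summits. The shared region at S1pr2 near Dnmt1 thus lost its NanogWT peak, kept 1 NanogBiD peak and was counted as NanogBiD only. H3K4me1 gave 51 regions. Of these 29 were shared, 16 were NanogWT only (31.4%, genome 34.8%) and 6 were NanogBiD only (11.8%, genome 17.3%).

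**Figure D2:**
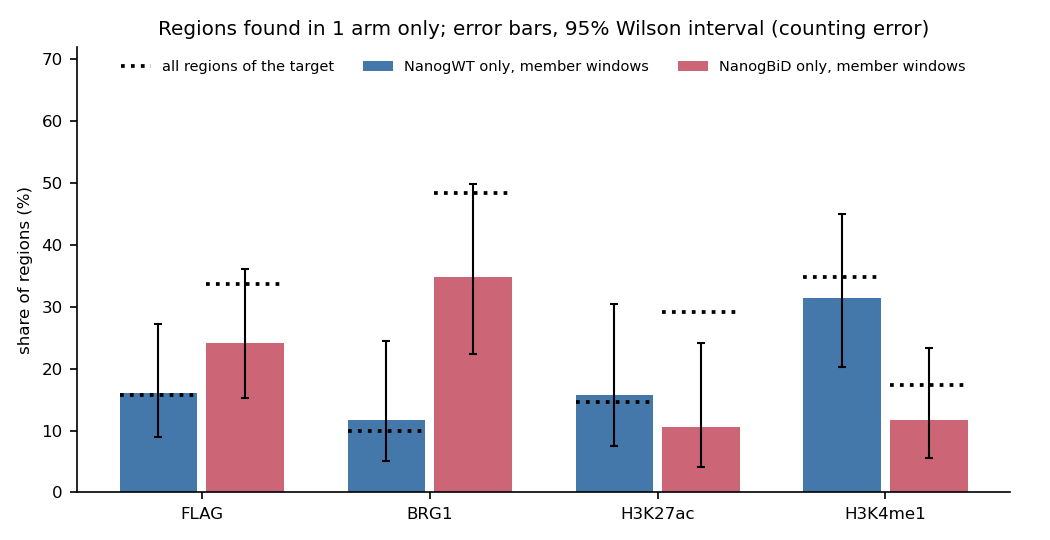
Share of regions found in 1 arm only (vertical axis, percent) for the 4 targets in the 8 gene windows, NanogWT only in blue and NanogBiD only in red, with 95% Wilson intervals for counting error and dotted lines for the share over all regions of that target. The dotted line lies outside the interval only for H3K27ac in NanogBiD only, 10.5% against 29.1%.

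Where both arms had a peak, summit heights differed little. The median log2 ratio of NanogBiD over NanogWT was 0.17 for FLAG over 37 regions (range -0.85 to 1.85), 0 for BRG1 over 23, -0.09 for H3K27ac over 28 and -0.09 for H3K4me1 over 29. Over all shared regions of the genome the medians were 0.15, 0.14, 0.08 and -0.18. FLAG summits were taller in NanogBiD at 22 regions, taller in NanogWT at 10 and equal at 5, and the share taller in NanogBiD over the genome was 58.6%. BRG1 summits were split evenly, 11 taller in each arm and 1 equal, where 57.5% were taller in NanogBiD over the genome. H3K27ac summits were taller in NanogBiD at 10 regions and in NanogWT at 16 (35.7% and, over the genome, 54.7% taller in NanogBiD), and H3K4me1 summits at 9 and 17 (31.0% and 23.8%). Taking the score of the peak caller in place of the height, the FLAG median was -0.0095. A shared region at least 2-fold taller in 1 arm, with 15 tags or more in it, was found once for FLAG in NanogBiD and once for H3K4me1 in NanogWT, and for no other target or direction. Over the genome such regions made up 7.67% (taller in NanogBiD) and 1.92% (taller in NanogWT) of shared FLAG regions, 7.22% and 0.428% for BRG1, 1.46% and 0.39% for H3K27ac, and 0.0169% and 0.858% for H3K4me1.

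**Figure D3:**
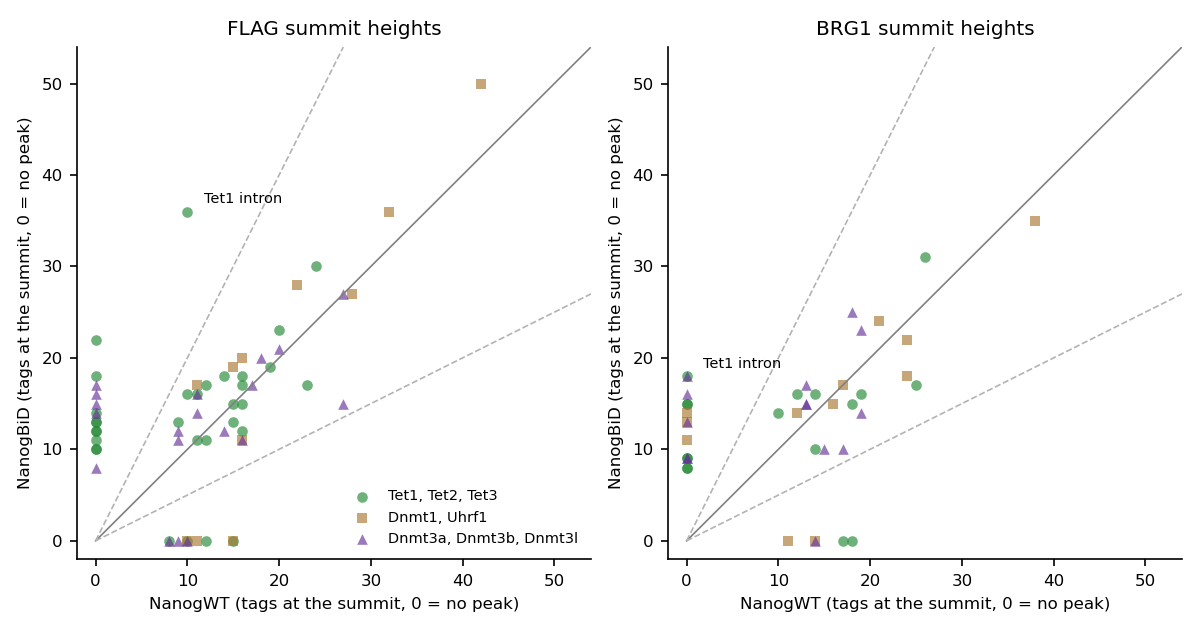
Summit height in NanogWT (horizontal axis, tags) against NanogBiD (vertical axis, tags) for FLAG on the left and BRG1 on the right, with 1 point per region of the 8 windows merged over the FLAG and BRG1 lists, colours and shapes for the 3 groups of genes and 0 for no peak. Solid lines mark equal heights and dashed lines 2-fold differences. Only the Tet1 intron region, at 10 and 36 FLAG tags, lies beyond 2-fold among regions with a FLAG peak in both arms.

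FLAG and BRG1 regions were merged over the 4 lists to ask where NANOG and BRG1 changed together, which gave 66 elements. Both targets were present in both arms at 22 (33.3%, genome 23.7%). Both were found in NanogBiD only at 5 elements (7.58%, genome 11.1%), of which 3 lay at Dnmt3a and 1 each at Tet1 and Dnmt3l. At a further 7 elements FLAG was present in both arms and BRG1 in NanogBiD only (10.6%, genome 15.2%), at Tet1, Tet2, Tet3, Dnmt3a and Uhrf1. Both were found in NanogWT only at 3 elements (4.55%, genome 1.55%), 1 each at Tet3, Dnmt3a and Uhrf1. FLAG in both arms with BRG1 in NanogWT only was seen once, at Tet3 (1.52%, genome 1.53%). BRG1 overlapped 26 of 47 FLAG elements in NanogWT (55.3%, 41.2 to 68.6%) and 35 of 52 in NanogBiD (67.3%, 53.8 to 78.5%). Genome-wide these shares were 44.1% and 64.8%, each within the interval of the members.

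Of the 15 elements with BRG1 in NanogBiD only, 3 overlapped an H3K27ac peak in NanogBiD (20%, 7.05 to 45.2%), where 40.1% of such elements of the genome carried it, a share within that interval. The 3 were 2 at Dnmt3a and 1 near Dnmt1 (chr9:20971691-20973935, H3K27ac 22 tags in NanogBiD), the last without FLAG. The NanogWT H3K27ac peak that overlapped the last element was wide. Its 32-tag summit lay outside the element, at the start of S1pr2, so the 2 heights are not comparable. Of the 12 elements with FLAG in NanogBiD and BRG1 in NanogBiD only, 2 overlapped an H3K27ac peak in NanogBiD (16.7%, 4.70 to 44.8%), and the share over 24588 such elements of the genome, 42.5%, again lay within the interval. H3K4me1 overlapped 4 of the 12 in NanogWT (33.3%, 13.8 to 60.9%, genome 39.6%) and 2 in NanogBiD (16.7%, 4.70 to 44.8%, genome 44.3%). The 3 elements with both targets in NanogWT only all overlapped H3K27ac in both arms (43.9 to 100%). Of 1448 such elements of the genome, 64.1% did in NanogWT and 36.4% in NanogBiD. At the Tet3 element the overlapping H3K27ac peak of NanogWT had its summit outside the element, near the start of Tet3-202. Of the 22 elements with both targets in both arms, 20 carried H3K27ac in NanogWT (90.9%, genome 87.2%) and 19 in NanogBiD (86.4%, genome 92.1%).

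Over all annotated starts of a gene, the arms did not differ in the presence of any target at promoters, although single starts did, as given by gene below. Within 2 kb of a start, 7 of the 8 genes had a FLAG peak in both arms and the same 7 had a BRG1 peak in both arms, where 51.5% and 50.3% of protein-coding genes did. All 8 had H3K27ac and H3K4me1 in both arms, as did 55.6% and 57.8% of protein-coding genes. A start peak in 1 arm only was thus found at none of the 8 for any target. Over all protein-coding genes, NanogBiD only and NanogWT only start peaks occurred at 5.31% and 3.74% for FLAG, 5.15% and 3.61% for BRG1, 4.29% and 1.44% for H3K27ac, and 4.24% and 5.5% for H3K4me1. The gene without FLAG or BRG1 at its start was Dnmt3b.

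**Figure D4:**
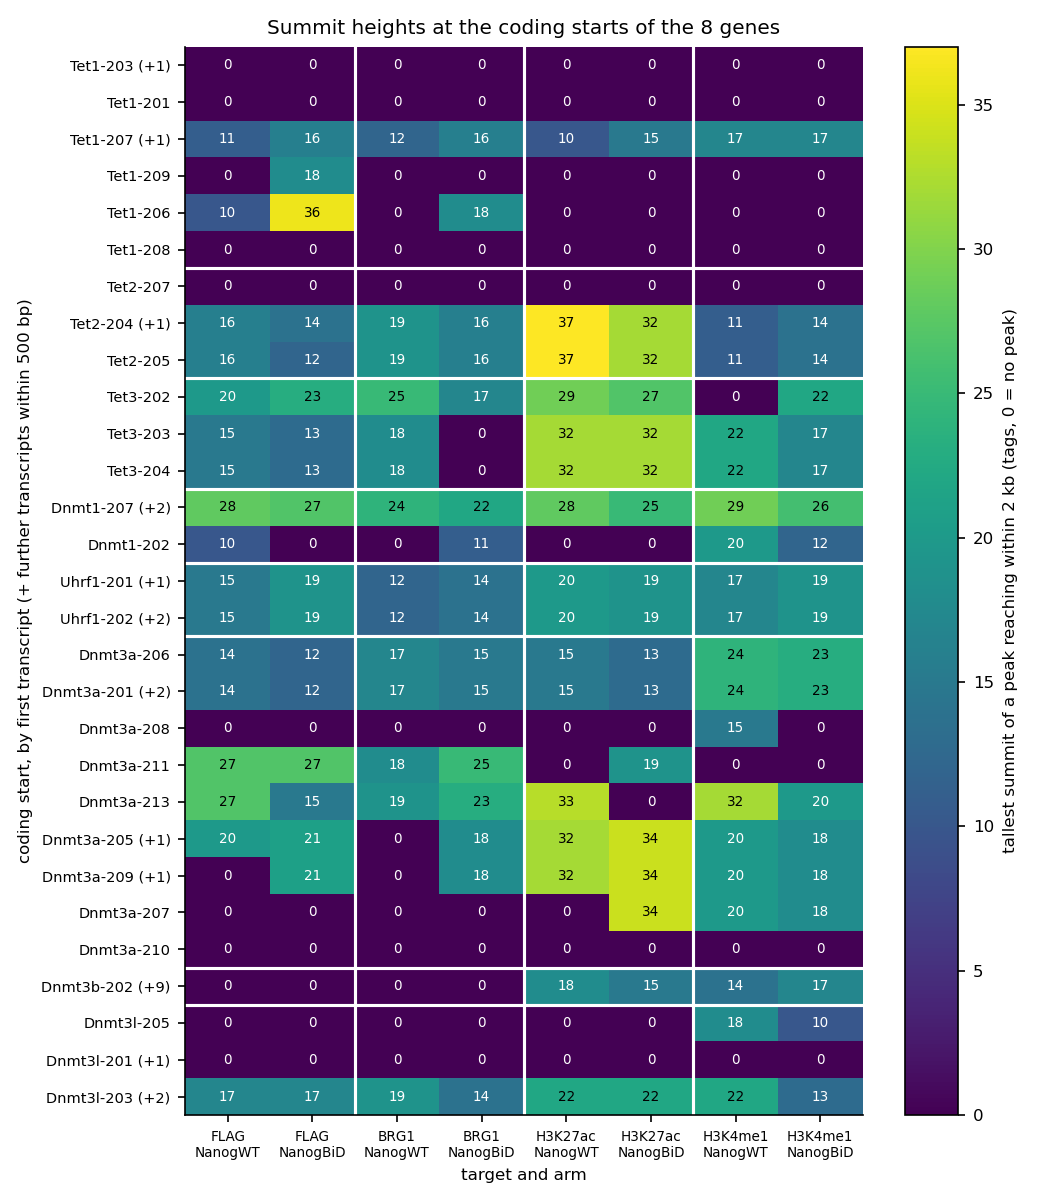
Height of the tallest summit, in tags, among peaks reaching within 2 kb of each coding start of the 8 genes (rows, named by the first transcript, with the number of further transcripts starting within 500 bp) in the 8 lists (columns). Colour and printed number give the height and 0 means no peak. The start of Dnmt3b is at 0 in the 4 FLAG and BRG1 lists, and Tet1-206 holds the highest FLAG value, 36 tags in NanogBiD.

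Tet1 showed the clearest difference of the dioxygenase genes. Its window (ENSMUSG00000047146.17, gene body chr10:62804570-62908996, minus strand) held 7 FLAG peaks in NanogWT and 10 in NanogBiD, 4 and 7 BRG1 peaks, 5 and 5 H3K27ac peaks, and 8 and 5 H3K4me1 peaks. The strongest change was in the intron region chr10:62896413-62897463, whose summit lay 2.25 kb downstream of the start of Tet1-206 (chr10:62899118). FLAG rose there from 10 tags in NanogWT to 36 in NanogBiD, 3.6-fold, and the score of the peak went from 50.5, just above the calling limit of 50, to 220. BRG1 had no peak in NanogWT and a summit of 18 tags in NanogBiD, and neither histone mark had a peak in either arm. It was the 1 shared FLAG region of 37 past 2-fold. In NanogWT that FLAG summit was taller than 14.8% of the peaks in its list and in NanogBiD than 94.8%.

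Other FLAG gains at Tet1 had lower summits. The start of Tet1-209 had an 18-tag FLAG peak in NanogBiD and none in NanogWT, with no peak of another target. FLAG peaks of 22 tags at chr10:62864298-62864833 and 11 tags at chr10:62851040-62851832, both intronic, were also NanogBiD only, the first of them 182 bp from a shared region. An element over the last exon, chr10:62808866-62809775, had FLAG at 13 tags and BRG1 at 8 in NanogBiD and neither in NanogWT. By contrast the start of Tet1-207 and Tet1-210 (chr10:62887324 and chr10:62887512) carried all targets in both arms: FLAG 11 tags in NanogWT and 16 in NanogBiD, BRG1 12 and 16, H3K27ac 10 and 15, H3K4me1 17 and 17. No peak of any list reached the most upstream start, Tet1-208. The tallest BRG1, H3K27ac and H3K4me1 regions of the window lay outside Tet1, at the start of the neighbour Ccar1, with 26 and 31, 49 and 42, and 20 and 28 tags.

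Tet2 (ENSMUSG00000040943.12, gene body chr3:133463679-133545139, minus strand) had the fewest peaks of the dioxygenase genes, 6 and 7 for FLAG and 1 and 3 for BRG1 in NanogWT and NanogBiD. Its start was among the most acetylated, with H3K27ac at 37 and 32 tags, FLAG at 16 and 12, BRG1 at 19 and 16 and H3K4me1 at 11 and 14. The values were lower in NanogBiD for all but H3K4me1. A separate NanogBiD only FLAG peak of 14 tags (chr3:133541977-133542856) also reached within 2 kb of the start of Tet2-204. Both additional BRG1 peaks were intronic and fell on FLAG regions of both arms. At chr3:133481540-133482417 FLAG was 9 and 13 tags and BRG1 absent and then 8, and at chr3:133534002-133535001 FLAG was 12 and 17 and BRG1 absent and then 9. Neither place had H3K27ac or H3K4me1 in either arm, and BRG1 summits of 8 and 9 tags were near the lowest of their list, which reached down to 6. The second of these was also the tallest FLAG region of the locus, and the tallest H3K4me1 peak, 16 tags at chr3:133535574-133536283, was NanogWT only.

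Tet3 (ENSMUSG00000034832.15, gene body chr6:83362373-83459084, minus strand) changed in both directions. FLAG peaks numbered 9 and 11 and BRG1 peaks 5 and 5. The tallest FLAG and BRG1 regions lay at the start of Tet3-202, with FLAG at 20 and 23 tags, BRG1 at 25 and 17, H3K27ac at 29 and 27, and H3K4me1 absent in NanogWT and 22 in NanogBiD. BRG1 was gained on shared FLAG regions in 2 introns, chr6:83371023-83372266 (FLAG 19 and 19 tags, BRG1 absent and then 15) and chr6:83420279-83421269 (FLAG 14 and 18, BRG1 absent and then 15). It was missing in NanogBiD at the start of Tet3-203 and Tet3-204, where NanogWT had 18 tags while FLAG stayed at 15 and 13 and H3K27ac at 32 and 32. FLAG and BRG1, at 15 and 17 tags, were both NanogWT only at chr6:83442516-83444335, 1.98 kb upstream of the start of Tet3-202. That element lay 29 bp from a shared region over the same start, with FLAG at 20 and 23 tags, and would be counted as shared if gaps of 500 bp were closed.

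Dnmt1, which encodes the maintenance methyltransferase, and Uhrf1, which encodes the protein that brings it to hemimethylated DNA, had all 4 targets at their starts in both arms. The Dnmt1 window (ENSMUSG00000004099.16, gene body chr9:20907209-20959888, minus strand) held 6 and 4 FLAG peaks and 5 and 6 BRG1 peaks in NanogWT and NanogBiD. At the start of Dnmt1-201, Dnmt1-203 and Dnmt1-207 FLAG was 28 and 27 tags, BRG1 24 and 22, H3K27ac 28 and 25 and H3K4me1 29 and 26. Each was 1 to 3 tags lower in NanogBiD. At the most upstream start, Dnmt1-202, FLAG was found in NanogWT only (10 tags), BRG1 in NanogBiD only (11 tags), and H3K4me1 in both (20 and 12 tags). The tallest H3K27ac region of the window, at 32 and 29 tags, covered the start of the neighbour S1pr2. The FLAG and BRG1 peaks near Dnmt1-202 were separate regions, 1.48 kb downstream and 1.89 kb upstream of that start.

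Uhrf1 (ENSMUSG00000001228.14, gene body chr17:56303321-56323486, plus strand) had 5 and 4 FLAG peaks and 4 and 4 BRG1 peaks. At its start FLAG was 15 and 19 tags, BRG1 12 and 14, H3K27ac 20 and 19 and H3K4me1 17 and 19. The tallest FLAG region of all 8 loci lay in this window but at the start of the neighbour Kdm4b, a histone demethylase gene, with 42 and 50 tags, BRG1 at 38 and 35, H3K27ac at 32 and 39 and H3K4me1 at 25 and 24. Upstream of Uhrf1, in an intron of Arrdc5, a strong FLAG region of both arms (chr17:56297727-56298996, 32 and 36 tags) had BRG1 in NanogBiD only (13 tags) and no histone mark in either arm. In a Kdm4b intron (chr17:56334421-56335367) FLAG at 15 tags and BRG1 at 14 were NanogWT only, H3K27ac went from 21 to 15 tags and H3K4me1 from 24 tags to no peak. Of 11 FLAG regions at Dnmt1 and Uhrf1 none was NanogBiD only, of 32 at the Tet genes 10 were (31.3%), and of 19 at the Dnmt3 genes 5 were (26.3%), where the share over the genome was 33.7%. The differences between these groups were not tested.

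Dnmt3a, the larger of the de novo methyltransferase genes here (ENSMUSG00000020661.15, gene body chr12:3806007-3914443, plus strand), had the most peaks of the 8 loci. Its window was also the longest (148 kb), and per 100 kb it did not lead for FLAG or BRG1 in either arm. FLAG numbered 11 in both arms and BRG1 6 in NanogWT and 9 in NanogBiD. The histone marks went the other way, from 10 to 7 peaks for H3K27ac and from 13 to 7 for H3K4me1. Of its 13 H3K4me1 regions, 7 were shared, 6 were NanogWT only and none was NanogBiD only, where 34.8% and 17.3% of H3K4me1 regions of the genome were. The whole H3K4me1 list also held fewer peaks in NanogBiD, 57156 against 72242. The length covered by H3K4me1 peaks in the window was 22.2 kb in NanogWT and 11.8 kb in NanogBiD.

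The upstream starts, Dnmt3a-201, Dnmt3a-204, Dnmt3a-206 and Dnmt3a-218, carried a pair of FLAG and BRG1 regions. Over the starts (chr12:3805677-3807215) FLAG was 14 and 12 tags and BRG1 13 and 15, and an H3K27ac peak of 15 tags was NanogWT only, 323 bp from a shared H3K27ac region. Just downstream (chr12:3807496-3809289) FLAG was 9 and 12 tags, H3K27ac 14 and 13 and H3K4me1 24 and 23, while BRG1 was 17 and 10, the lowest ratio of the 23 shared BRG1 regions (log2 -0.77). At the internal start of Dnmt3a-203 and Dnmt3a-205 (chr12:3891728 and chr12:3891744) FLAG was 20 and 21 tags, H3K27ac 32 and 34 and H3K4me1 20 and 18, but BRG1 had no peak in NanogWT and 18 tags in NanogBiD. At Dnmt3a-213, between them, FLAG went from 27 to 15 tags and H3K27ac from 33 tags to no peak, while BRG1 was 19 and 23 and H3K4me1 32 and 20. The tallest BRG1 region lay at Dnmt3a-211, with 18 and 25 tags, FLAG at 27 and 27, no H3K4me1, and H3K27ac at 19 tags in NanogBiD alone. That H3K27ac peak lay 107 bp from a 20-tag peak of NanogWT only (chr12:3868978-3872253), and both would count as 1 shared region if gaps of 500 bp were closed.

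Within introns of Dnmt3a, FLAG and BRG1 appeared in NanogBiD only at chr12:3817861-3819002 (17 and 16 tags) and chr12:3854154-3854904 (16 and 9 tags). The first of these, whose window is printed above, gained an H3K27ac peak of 12 tags and lacked, in NanogBiD, the 20-tag H3K4me1 peak of NanogWT. The second had no histone mark. Its summit lay 1444 bp from that of an element with the opposite pattern, chr12:3855597-3856571, which had FLAG at 10 tags and BRG1 at 14 in NanogWT and neither in NanogBiD. There H3K27ac went from 21 to 12 tags and H3K4me1 from 22 tags to no peak. The last NanogBiD only element, chr12:3921057-3922262 downstream of the gene (FLAG 15 and BRG1 13 tags), lay 161 bp from a shared FLAG region.

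**Figure D5:**
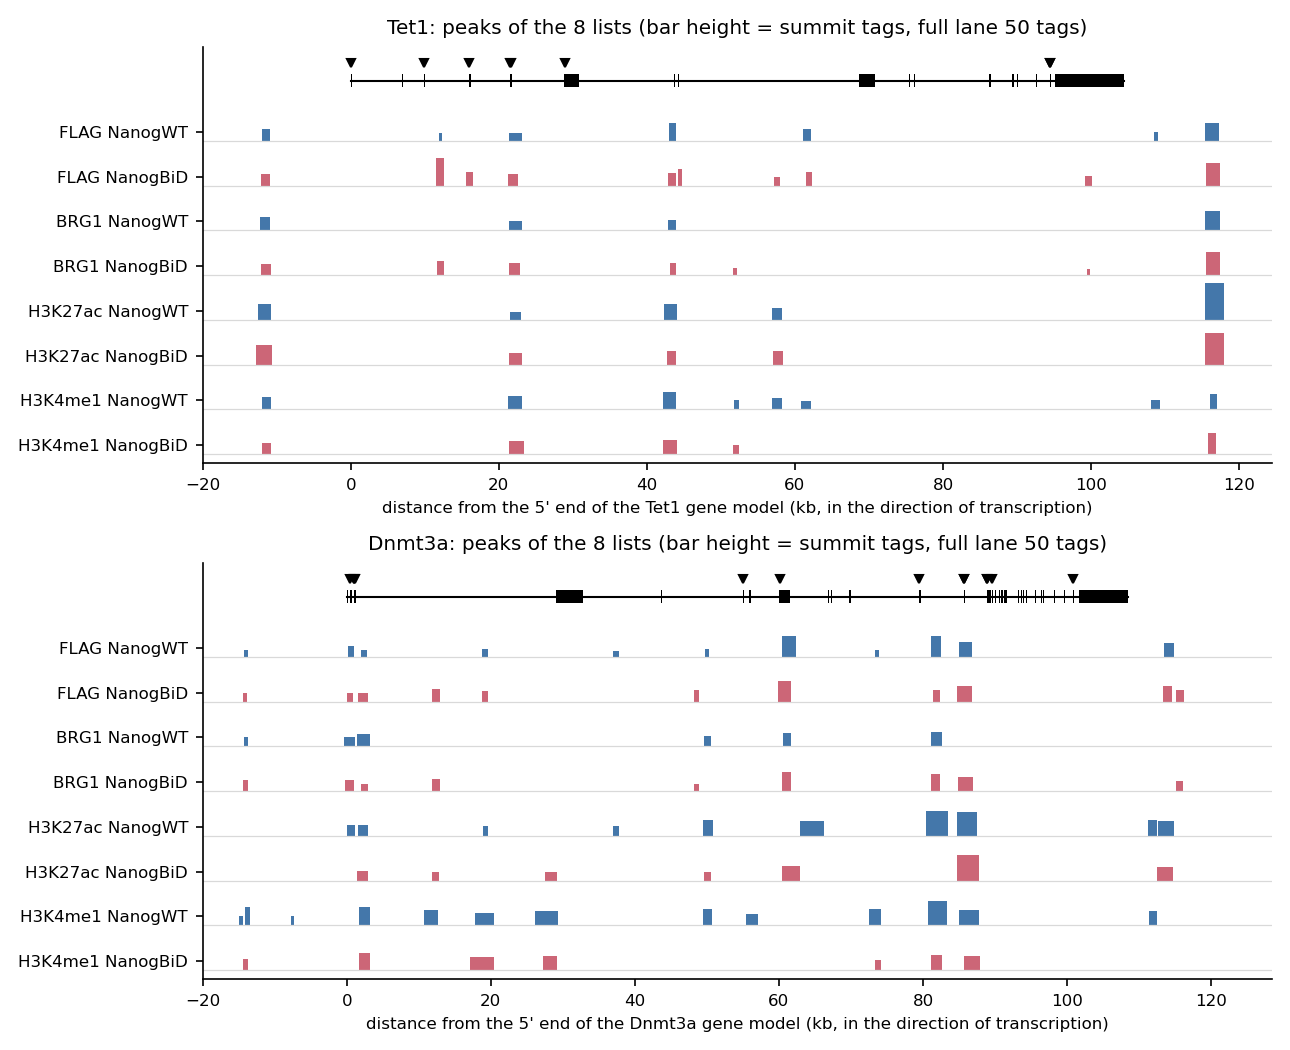
Peaks of the 8 lists (lanes) at Tet1 above and Dnmt3a below, against the distance in kb from the 5' end of the gene model in the direction of transcription. Bar height is the summit height with 50 tags filling a lane, NanogWT is blue and NanogBiD red, black boxes are annotated exons and triangles coding starts. At Tet1 the FLAG bar 12.1 kb into the gene rises from 10 to 36 tags with a BRG1 bar in NanogBiD alone, and at Dnmt3a the H3K4me1 lane thins from 13 to 7 peaks.

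Dnmt3b, the other de novo methyltransferase gene (ENSMUSG00000027478.15, gene body chr2:153649450-153687730, plus strand), stood apart from the rest by the lack of a called FLAG or BRG1 peak at its start. Signal below the calling limit was not examined. Its start had H3K27ac at 18 and 15 tags and H3K4me1 at 14 and 17, with no FLAG or BRG1 peak in either arm. This pattern over the 8 lists was shared by 170 protein-coding genes (0.774%), whereas the pattern of the other 7 members, a peak in every list, was shared by 8732 (39.8%). The genes with the nearest 8 promoter heights were Nfkbid, Grk3 and Lypla2, at Euclidean distances of 0.218, 0.34 and 0.369 on the log2 scale of tags plus 1. The FLAG and BRG1 peaks of the window lay together at the start of Commd7, where FLAG was 16 and 11 tags, BRG1 15 and 10, H3K27ac 18 and 24, and H3K4me1 20 and 10, the last at least 2-fold lower in NanogBiD (0.858% of shared H3K4me1 regions over the genome).

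Dnmt3l, which encodes the inactive partner of the de novo enzymes (ENSMUSG00000000730.13, gene body chr10:78041947-78063622, plus strand), had 2 and 4 FLAG peaks and 2 and 3 BRG1 peaks. No FLAG, BRG1 or H3K27ac peak reached the upstream starts, Dnmt3l-205 and Dnmt3l-201. The internal start of Dnmt3l-203 was occupied in both arms, with FLAG at 17 and 17 tags, BRG1 at 19 and 14, H3K27ac at 22 and 22 and H3K4me1 at 22 and 13. Upstream, at chr10:78027829-78028579, 14.1 kb before the start of Dnmt3l-205, FLAG at 14 tags and BRG1 at 9 were NanogBiD only, on H3K4me1 of 16 and 11 tags and without H3K27ac.

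Other genes of the pathway were taken as a list of 30, from readers and cofactors of methylation to base excision repair and the supply of methyl donors. Their FLAG peaks numbered 91 in NanogWT and 118 in NanogBiD. In 16 loci there were more in NanogBiD, in none more in NanogWT and in 14 as many, against the shares of all gene windows given above. BRG1 peaks numbered 78 and 88, with 11 loci higher in NanogBiD and 6 in NanogWT. H3K27ac peaks numbered 90 and 102, with 12 loci higher in NanogBiD and 4 in NanogWT. H3K4me1 peaks numbered 117 and 101, with 3 and 13. The NanogBiD only share of regions was 30% for FLAG (22.8 to 38.4%, genome 33.7%) and 20.4% for BRG1 (13.6 to 29.4%, genome 48.4%). Among the histone marks it was 19.1% for H3K27ac (12.8 to 27.4%, genome 29.1%) and 13.5% for H3K4me1 (8.74 to 20.4%, genome 17.3%). The genome share lay above the interval for BRG1 and H3K27ac and within it for FLAG and H3K4me1. The largest difference between arms in the number of FLAG plus BRG1 peaks was at Zbtb38, which encodes a protein that binds methylated DNA, with 5 and 10 FLAG and 7 and 9 BRG1 peaks. Usp7, whose product deubiquitinates and stabilizes UHRF1 and DNMT1, had 8 and 10 FLAG and 7 and 9 BRG1 peaks. Gadd45a, a stress-response gene linked to active demethylation, had 3 and 5 FLAG and 1 and 3 BRG1 peaks. Gadd45b, Smug1 and Uhrf2 followed, with 3 more in NanogBiD each.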

How the data were processed

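CUT&Tag reads had been trimmed with Trim Galore 0.6.4, aligned with Bowtie2 2.4.5 to mm10 and filtered with SAMtools 1.16.1, per the processing notes of the submitters. The authors then merged replicates, in a number not stated for each list, and called peaks with MACS 1.4.2 without a named control. The deposited peak lists give a score, the significance score of MACS, and the deposited summit lists give a signal, the tag pileup at the summit. Depth is unknown, so it cannot be set beside any value.

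Peaks and summits were joined by name, and peaks overlapping or touching by 1 bp were merged with Python 3.11.15, pandas 2.3.3 and numpy 2.4.6. Starts and gene bodies came from GENCODE M21 and sequences from the RefSeq copy of GRCm38.p6, in which 0 of 21 chromosomes had a peak past its end. Shares carry 95% Wilson intervals from scipy 1.17.1, and figures were drawn with matplotlib 3.10.9. Classification was tested on simulated data. Named were all 8 genes, elements with FLAG and BRG1 in 1 arm only, the tallest region of each target, shared regions at least 2-fold apart with 15 tags or more, the 4 pathway loci with the largest difference (the last place was a tie of 3 genes) and the 3 genes most like a member. Further regions were named after their values were seen. Members, lists and rules were chosen with earlier results of these data known. Alternatives were a score of at least 100, 20000 peaks per list, 15 tags, windows of 5 and 50 kb, summit windows of 100 bp, gaps of 500 bp, promoters of 1 kb, scores for heights and centring. Leaving out peaks at starts of other genes was added after seeing the data.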

Additional observations from a re-analysis of the deposited data

How the results depend on the processing

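With 1 merged library per group, counting error alone can be given, and depth is unknown. Of 60 shares and counts under alternatives, 53 stayed near the reported value, within its counting interval for shares. The median log2 ratios have no spread to be judged by and ranged over 8 alternatives each from -0.0095 to 0.23 (FLAG), -0.14 to 0.20 (BRG1), -0.19 to 0.053 (H3K27ac) and -0.22 to 0.087 (H3K4me1), each range on both sides of 0. Cutting every list to 20000 peaks by score makes the NanogBiD share of all peaks 50% by construction, and that of the loci was then 45.5% for FLAG and 40.0% for BRG1. NanogBiD only regions then made up 14.3% (FLAG), 8.70% (BRG1) and 4.0% (H3K27ac), beside 26.6%, 27% and 17.9% over the genome, of which that for BRG1 lay outside the interval of the loci, and the H3K27ac median log2 ratio was 0.053. With a score of at least 100 the NanogBiD only share of BRG1 was 19.0% (genome 50.6%, outside the interval), and with summit windows that of H3K27ac was 30% (genome 39.8%, within it). Scores in place of heights gave a FLAG median of -0.0095, and centring on all shared regions gave an H3K4me1 median of 0.087. The cause of these moves was not tested. Leaving out peaks at starts of other genes gave NanogBiD only shares of 43.8% (BRG1) and 17.2% (H3K27ac) and a BRG1 median of 0.20. No genome share was computed for that setting, and without this filter the genome shares were 48.4% and 29.1%. The H3K27ac share includes the region at S1pr2 that lost only its NanogWT call in this way. No paired analysis was possible because every list stands for pooled replicates without numbers.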
